A study of Homo sapiens with 20 samples.

Results

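The genes described here are 32 human imprinted genes from 15 chromosomal loci, taken by name as rows of the count tables of 12 RNA-seq libraries. All 32 were present among 54435 features. Of these, 24 genes from 13 loci had enough reads to be tested with 16792 features in all, and 8 did not (RTL1, ZIM2, USP29, H19, IGF2, SNURF, HYMAI and DIRAS3). The libraries hold poly(A) RNA from H1, an established human embryonic stem cell line. KO1 and KO2 are single clones whose labels name a knockout of DIGIT. DIGIT makes a long noncoding RNA and lies beside the homeobox gene GSC in the broad band 14q32, which also holds MEG3. Whether this position bears on MEG3 was not tested. WT is the unedited line. Each line was sequenced at day 4, in RPMI medium supplemented with B27 and Activin A at 50 ng/ml, which directs these cells towards endoderm, and at day 0, in mTeSR1, a medium for undifferentiated cells. This gives 6 groups of 2 libraries. The day 0 medium differs from the day 4 medium, and no label says whether replicates are separate cultures, so p-values measure only the spread between libraries. DIGIT itself was not analysed here, so the knockout status rests on the labels.

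An imprinted gene is transcribed mainly or only from the copy inherited from one parent. Most such genes lie in clusters governed by a differentially methylated region, which carries DNA methylation on one parental copy that is set in the germ line and kept through early development. In human pluripotent stem cell lines imprinted genes are known to gain or lose expression in individual lines and clones during culture, and counts alone do not separate the parental copies. In bulk RNA, fewer cells that express a gene and less RNA per cell cannot be told apart.

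Total counts per library ran from 9942016 to 21394547. Values are given as CPM, the counts of a library scaled to a common total of reads on tested features with edgeR's TMM factors, and 3 counts in a library equalled 0.133 to 0.294 CPM. A gene is called changed where the adjusted p of edgeR's quasi-likelihood test, corrected over all 16792 features, is under 0.05. The summed level of 7 definitive endoderm markers (SOX17, FOXA2, CXCR4, GATA6, GATA4, CER1 and HHEX) was 4902 to 4976 CPM in KO1, 831 to 1052 CPM in KO2 and 4478 to 4876 CPM in WT at day 4, and 6.22 to 13 CPM in the day 0 groups, with no marker at 0 in any group. At day 4 all 7 markers were lower in KO2 than in WT, and in KO1 3 of the 7, SOX17, CXCR4 and GATA4, were lower and none higher (median log2 -0.37), a difference that the sum does not show. The part of either in the other day 4 values was not tested. The KO1 day 0 pair stood apart, with a chi-square of 22 per gene between its libraries where the other pairs had 1.96 to 4.11. Leaving out 1 library of that pair moved counts of the imprinted genes. For comparisons that include KO1, the count without it is given beside the share of all features called in that refit. Some counts in comparisons without KO1 moved too, and not all of them are given.

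Among the 24 tested imprinted genes, the called differences between the clones and WT in undifferentiated cells lay at MEG3 in 14q32 and PEG3 in 19q13. Both genes were near the detection limit in both clones and were clearly counted in WT. MEG3 is a long noncoding RNA made from the maternal copy of the DLK1-DIO3 cluster, and PEG3 codes for a zinc finger protein made from the paternal copy. The promoter window of MEG3 is shown because MEG3 had the largest fitted difference from WT among these genes in both clones at day 0. It covers 250 bases before to 50 bases after a transcription start, chr14:100825858-100826157 on the plus strand of GRCh38.p14, from RefSeq. The capitals at position 70 are the reverse complement of TGCCGC, the core hexamer bound by the imprint-protecting zinc finger protein ZFP57, and the capitals at position 201 are TGACGTCA, the cyclic AMP response element.

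MEG3 promoter window: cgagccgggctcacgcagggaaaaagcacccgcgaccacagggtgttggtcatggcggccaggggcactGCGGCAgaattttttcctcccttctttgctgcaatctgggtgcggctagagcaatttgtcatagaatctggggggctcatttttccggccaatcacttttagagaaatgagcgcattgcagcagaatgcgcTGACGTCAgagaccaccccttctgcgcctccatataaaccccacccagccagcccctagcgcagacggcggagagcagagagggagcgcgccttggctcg

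The window held 19 CpG sites, against a median of 14 over all 35116 windows of this length in the table. Read on both strands, TGACGTCA occurred in 1.85% of all windows and TGCCGC in 16.7%. RefSeq gave a window for 21 of the 32 genes, 50 windows in all, which overlap in part and are shared by some genes (SNRPN with SNURF, PLAGL1 with HYMAI). TGCCGC, which holds a CpG itself, was in 21 of the 50 (42%), from 13 of the 21 genes. TGACGTCA was in 4 (8%), from 2 of the 21 genes. These were 3 overlapping MEG3 windows that hold the same single site and 1 ZDBF2 window. A match describes letters only.

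At day 0 MEG3 had 0.494 and 0.178 CPM in the KO1 libraries and 0.281 and 0.979 CPM in the KO2 libraries, against 7.17 and 9.04 CPM in the WT libraries. In counts these were 9 and 4 in KO1, 3 and 10 in KO2 and 74 and 128 in WT. All 4 clone libraries lay far below both WT libraries. MEG3 was lower by 24.7-fold in KO1 than in WT (log2 -4.63, SE 0.40, adjusted p = 2.79e-05) and by 12.9-fold in KO2 than in WT (log2 -3.69, SE 0.42, adjusted p = 0.00108). The log2 value ran from -5.45 to -4.03 in KO1 and from -4.82 to -3.05 in KO2 over the 18 alternative analyses, so the fold is known only roughly. The call in KO1 held in all of them, whereas that in KO2 was lost without KO2 day 0 replicate 1 (adjusted p = 0.056; 8.31e-24 to 0.056 over the alternatives).

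PEG3 had 0.22 and 0.356 CPM in KO1 and 0.375 and 0.49 CPM in KO2 at day 0, against 4.16 and 3.04 CPM in WT. These were 4 and 8 counts in KO1, 4 and 5 in KO2 and 43 and 43 in WT, again with no overlap between the clones and WT. PEG3 was lower in KO1 than in WT (log2 -3.55, SE 0.44, adjusted p = 0.00171) and lower in KO2 than in WT (log2 -3.02, SE 0.49, adjusted p = 0.0202). The KO1 call was lost without WT day 0 replicate 1 (adjusted p = 0.0545; 2.19e-15 to 0.0545 over the alternatives). The KO2 call was lost on leaving out any of its 4 libraries (adjusted p = 0.535 and 0.298 without KO2 replicates 1 and 2, and 0.255 and 0.147 without WT replicates 1 and 2; 1.63e-08 to 0.535 over the alternatives).

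MEG3 and PEG3 were the only 2 of the 24 tested imprinted genes called at day 0 in KO1, both lower, where 0.179% of all tested features were lower and 0.0596% higher. They were also the only 2 called in KO2, both lower, where 0.0893% of all features were lower and 0.0536% higher. Both comparisons use the same WT libraries. Ranked from the most lowered of 16792 features, MEG3 was 3rd and PEG3 5th in KO1, and MEG3 was 6th and PEG3 12th in KO2. Without KO1 day 0 replicate 1, 7 of the 24 were called in KO1, where 21.9% of all features were then called, and without replicate 2 the count was 2, where 0.244% were called. DESeq2 called 2 in each clone. The median log2 difference of the 24 genes was -0.01 in KO1 and -0.03 in KO2, against 0.00 over all features in both.

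**Figure D1:**
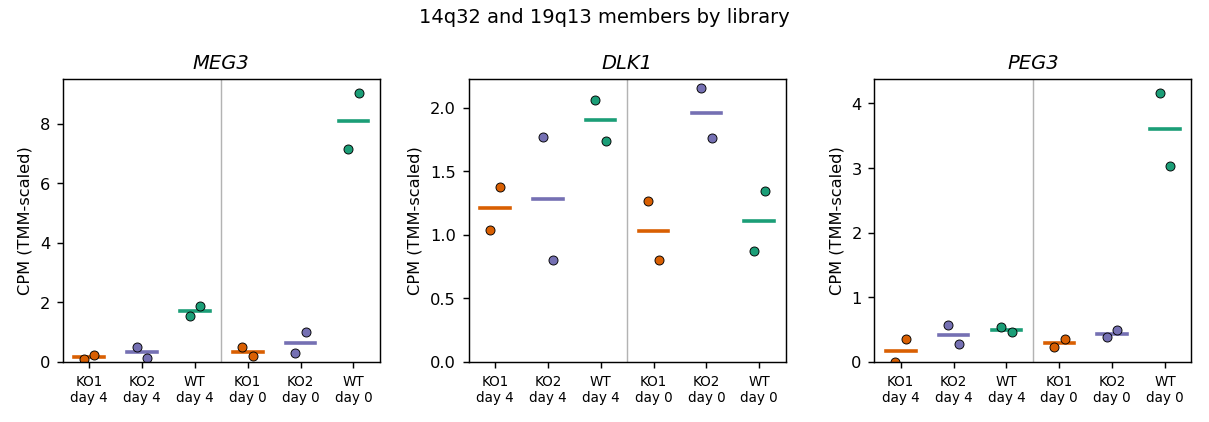
MEG3, DLK1 and PEG3 in each library, in CPM on a linear axis from 0, with a dot for each of 2 libraries per group and a bar for their mean. MEG3 and PEG3 stand at 8.1 ± 1.33 and 3.6 ± 0.797 CPM in WT at day 0 (SD, n = 2) and below 1 CPM in every KO1 and KO2 library, while DLK1 runs from 0.801 to 2.15 CPM over all libraries.

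At day 4 MEG3 was also lower in both clones. It had 0.0863 and 0.206 CPM in KO1 and 0.481 and 0.134 CPM in KO2, against 1.53 and 1.87 CPM in WT, which came from 1 and 3 counts in KO1, 6 and 2 in KO2 and 20 and 29 in WT. No clone library reached a WT library, although 3 of the 4 were at or under 3 counts. MEG3 was lower in KO1 (log2 -3.41, SE 0.66, adjusted p = 0.00218) and in KO2 (log2 -2.51, SE 0.57, adjusted p = 0.00409), and the KO2 call was lost without KO2 day 4 replicate 2 (adjusted p = 0.0768; 1.36e-06 to 0.0768 over the alternatives). In WT, MEG3 itself fell between days, to 1.7 ± 0.243 CPM at day 4 against 8.1 ± 1.33 CPM at day 0 (log2 -2.25, SE 0.33, adjusted p = 3.97e-05). In the clones the day 4 to day 0 difference did not pass, at log2 -1.03 in KO1 (adjusted p = 0.332) and -1.07 in KO2 (adjusted p = 0.247). The change of a clone minus that of WT did not pass either (adjusted p = 0.546 for KO1 and 0.409 for KO2).

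The paternal gene of the same cluster, DLK1, codes for a membrane protein of the Notch ligand family and passed no test. DLK1 had 1.04 and 1.38 CPM in KO1, 1.77 and 0.803 in KO2 and 2.06 and 1.74 in WT at day 4. At day 0 it had 1.26 and 0.801 CPM in KO1, 2.15 and 1.76 in KO2 and 0.872 and 1.34 in WT. The KO2 libraries lay above the WT libraries at day 0 (log2 0.78, SE 0.41, adjusted p = 1), a difference that did not pass. RTL1, a retrotransposon-derived gene transcribed opposite to part of the cluster's noncoding RNA, had 0 to 9 counts per library and was not tested. At day 4 it had 4 and 5 counts in KO1, 2 and 3 in KO2 and 8 and 9 in WT, with all clone libraries below both WT libraries. At day 0 it had 1 and 0 counts in KO1, 0 and 3 in KO2 and 4 and 0 in WT, and the lines overlapped. The noncoding genes MEG8 and MEG9 downstream of MEG3 were nearly silent in poly(A) RNA, with 1 count of MEG8 in all libraries together. MEG9 had 5 counts in KO1, 1 in KO2 and 9 in WT at day 0, and 4 in KO1, 4 in KO2 and 2 in WT at day 4.

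PEG3 was not called against WT at day 4, when it was low in all 3 lines. It had 0 and 0.344 CPM in KO1, 0.562 and 0.268 in KO2 and 0.534 and 0.451 CPM in WT, from 0 and 5 counts in KO1, 7 and 4 in KO2 and 7 and 7 in WT. The KO1 libraries lay below WT and the KO2 libraries on either side of it, and neither difference passed (log2 -1.32, adjusted p = 0.262 in KO1 and log2 -0.28, adjusted p = 0.793 in KO2). In WT, PEG3 fell to 0.493 ± 0.0586 CPM at day 4 against 3.6 ± 0.797 CPM at day 0 (log2 -2.84, SE 0.44, adjusted p = 7.26e-05). The difference between days was log2 -0.60 in KO1 and -0.10 in KO2, neither called. The KO1 value rests on day 4 libraries of 0 and 5 counts, and without KO1 day 4 replicate 2 it was log2 -5.08 and passed (adjusted p = 0.0451; 0.0451 to 0.89 over the alternatives). The change in KO2 minus that in WT passed narrowly (log2 2.74, SE 0.88, adjusted p = 0.0497) and was lost in 11 of 17 alternatives (adjusted p 0.00823 to 0.297), among them other scaling factors. That in KO1 did not pass (log2 2.23, adjusted p = 0.206).

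ZIM2, a zinc finger gene that shares its first exons with PEG3, had 2 to 10 counts per library. USP29, a paternally expressed gene of the ubiquitin protease family whose start lies next to that of PEG3, had 9 and 14 counts in KO1, 1 and 4 in KO2 and 2 and 6 in WT at day 0. USP29 counts in KO1 were thus not below those of WT. Neither gene was tested. How reads in exons shared by ZIM2 and PEG3 were assigned is not given in the sources used here.

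The genes around both loci were called in neither clone at day 0. None of 10 tested neighbours of 14q32, 5 on each side, and none of 11 of 19q13 passed in edgeR or in DESeq2. In edgeR, 0.0596% of all features were higher and 0.179% lower in KO1, and 0.0536% higher and 0.0893% lower in KO2. At such shares no call in so short a list says little. At an unadjusted p under 0.05, 1 neighbour of 14q32 passed in KO1 and 0 in KO2, and 2 of 19q13 passed in each clone. At day 4, 1 of the 10 neighbours of 14q32 was higher and 2 were lower in KO1, where 10.5% of all features were higher and 9.42% lower, and 2 were higher and 2 lower in KO2, where 13.5% were higher and 14.5% lower. DIO3, the type 3 deiodinase that inactivates thyroid hormone and marks the far end of the imprinted cluster, was lowered most of these. It had 15.1 ± 1.76 CPM in KO1, 2.25 ± 0.443 CPM in KO2 and 31.7 ± 12 CPM in WT at day 4 (SD, n = 2 each). It was lower in KO1 (log2 -1.07, adjusted p = 0.00239) and in KO2 (log2 -3.82, adjusted p = 9.35e-08). DIO3 was at most 0.203 CPM on average in any group at day 0, and in WT it rose between days by log2 7.21. SLC25A29, a mitochondrial carrier, was lower by log2 -0.41 in KO1 and -0.46 in KO2, and YY1, a zinc finger transcription factor, was higher by log2 0.23 and 0.35. HSP90AA1, a heat shock protein, was higher in KO2 by log2 0.32. None of the 11 neighbours of 19q13 was called at day 4 in edgeR or DESeq2, while 0 in KO1 and 3 in KO2 passed at an unadjusted p under 0.05.

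At day 4, 5 of the 24 genes were called in KO1, 3 higher and 2 lower, and 8 in KO2, 3 higher and 5 lower. Of all features, 10.5% were higher and 9.42% lower in KO1, and 13.5% were higher and 14.5% lower in KO2. Both comparisons use the same WT libraries. The count in KO1 turned on the KO1 day 0 pair, which is not part of the comparison but of the estimate of spread: it was 12 on leaving out either library of that pair and 12 with only the groups compared in the fit, and the share of all features called was then 30.2% or 30.3%, and 32.3%. It was 1 without KO1 day 4 replicate 1 and 2 without WT day 4 replicate 1, where 7.8% and 9.54% of all features were called. The count in KO2 was 4 to 9 when 1 library was left out, with 4 without KO2 day 4 replicate 2 and 5 without KO2 day 4 replicate 1 or WT day 4 replicate 2, where 14.4%, 16.4% and 18.4% of all features were called. Besides MEG3, the genes called in KO1 were PHLDA2, SLC22A18, UBE3A and PEG10. Those called in KO2 were CDKN1C, SLC22A18, SNRPN, UBE3A, MEST, GRB10 and NNAT. The median log2 difference of the 24 genes was -0.01 in KO1 and -0.12 in KO2, against 0.01 over all features in both.

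**Figure D2:**
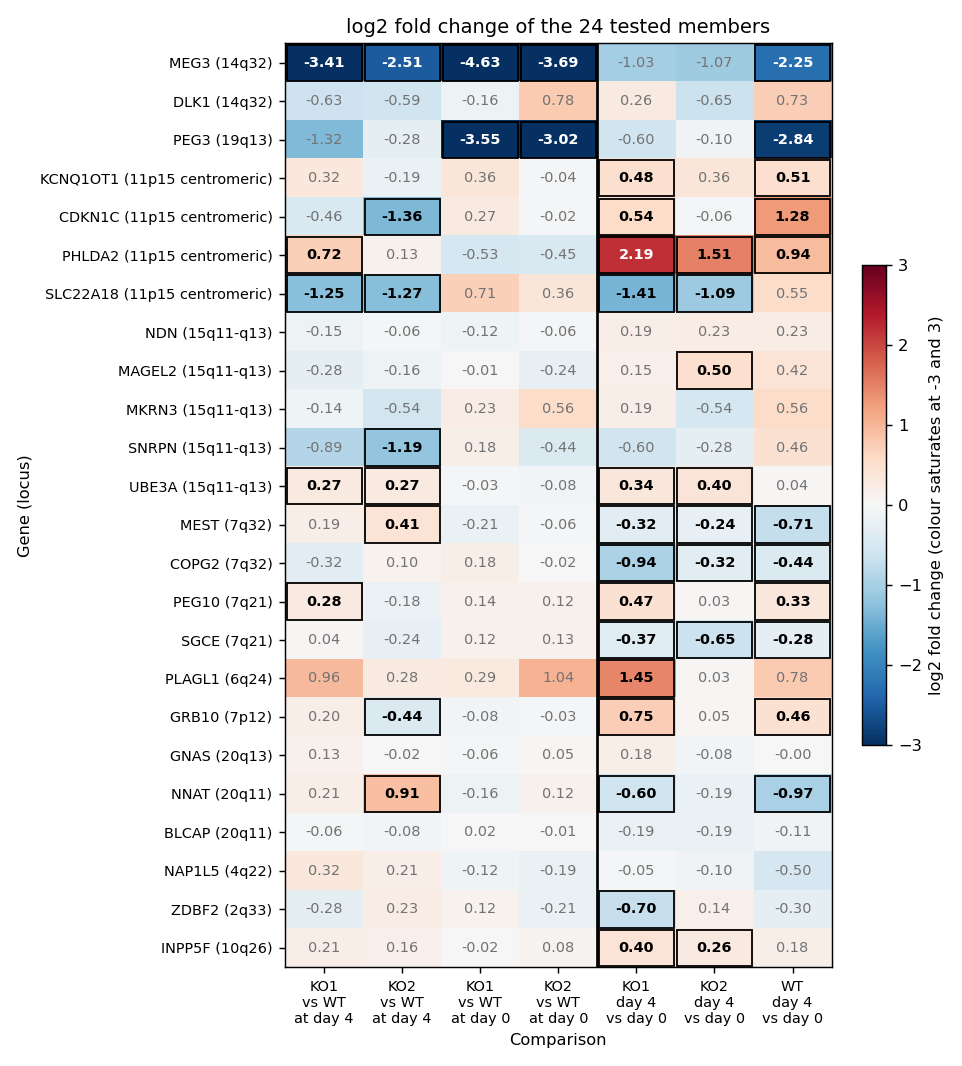
Fitted log2 fold changes of the 24 tested imprinted genes (rows, with locus) in 7 comparisons (columns), blue for lower and red for higher in the group named first, with framed bold values where the adjusted p was under 0.05. MEG3 is framed in all 4 comparisons with WT, PEG3 in the 2 at day 0 only, and the other framed values in comparisons with WT are at day 4.

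Among the 24 tested genes, the centromeric 11p15 domain held the largest called differences from WT at day 4 after MEG3, and its genes did not move alike. CDKN1C and PHLDA2 are growth-restraining genes made from the maternal copy, a cyclin-dependent kinase inhibitor and a pleckstrin homology protein that limits placental growth in mice. CDKN1C had 9.92 and 8.53 CPM in KO1, 4.17 and 5.62 in KO2 and 13 and 12.3 CPM in WT at day 4. The 3 lines did not overlap, with WT highest and KO2 lowest. CDKN1C was lower in KO2 than in WT (log2 -1.36, SE 0.19, adjusted p = 8.93e-05), a call held in all 18 alternatives, and the difference in KO1 did not pass (log2 -0.46, adjusted p = 0.0794).

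At day 0 CDKN1C had 5.71 and 6.85 CPM in KO1, 4.21 and 6.07 in KO2 and 5.04 and 5.37 in WT. KO2 overlapped both other lines. Both KO1 libraries lay above both WT libraries, a difference that did not pass (log2 0.27, adjusted p = 0.663). Between days it rose in KO1 (log2 0.54, SE 0.18, adjusted p = 0.0185) and in WT (log2 1.28, SE 0.19, adjusted p = 5.45e-05), and in KO2 the difference was log2 -0.06 (adjusted p = 0.853). The KO1 call was lost without KO1 day 4 replicate 1 (0.13) or KO1 day 0 replicate 1 (0.0506; 0.00503 to 0.13 over the alternatives). The change in KO2 was smaller than that in WT (log2 -1.33, SE 0.29, adjusted p = 0.00728), lost without KO2 day 0 replicate 2 (adjusted p = 0.0669; 0.000213 to 0.0669 over the alternatives).

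PHLDA2 had 9.23 and 7.43 CPM in KO1, 4.98 and 5.96 in KO2 and 4.65 and 5.35 CPM in WT at day 4. KO1 was above the other lines, and KO2 and WT overlapped. PHLDA2 was higher in KO1 than in WT (log2 0.72, SE 0.21, adjusted p = 0.0222), a call lost with DESeq2 (0.0838) and without KO1 day 4 replicate 1 (0.2) or either WT day 4 library (0.155 and 0.0711; 0.0033 to 0.2 over the alternatives). At day 0 it had 2.2 and 1.47 CPM in KO1, 1.59 and 2.25 in KO2 and 2.61 and 2.61 in WT, where all clone libraries lay below WT without passing. PHLDA2 rose between days in KO1 (log2 2.19, SE 0.23, adjusted p = 8.66e-07), in KO2 (log2 1.51, SE 0.27, adjusted p = 0.000249) and in WT (log2 0.94, SE 0.24, adjusted p = 0.00491). The rise in KO1 exceeded that in WT (log2 1.25, SE 0.34, adjusted p = 0.0312), which 8 of 18 alternatives did not call (0.00258 to 0.123).

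SLC22A18, a membrane transporter gene made mainly from the maternal copy, had 1.47 and 1.72 CPM in KO1 and 1.93 and 1.27 CPM in KO2 at day 4, against 4.27 and 3.42 CPM in WT. The 4 clone libraries lay below both WT libraries. It was lower in KO1 (log2 -1.25, SE 0.40, adjusted p = 0.041) and in KO2 (log2 -1.27, SE 0.40, adjusted p = 0.0277), but each call was lost on leaving out any of the 4 libraries compared (adjusted p = 0.085 to 0.198 in KO1 and 0.0504 to 0.212 in KO2). At day 0 the lines overlapped, with 2.69 and 5.69 CPM in KO1, 2.53 and 4.21 in KO2 and 3.39 and 1.98 in WT. The KO1 pair differed there by more than the lines did. SLC22A18 fell between days in KO1 (log2 -1.41, SE 0.38, adjusted p = 0.00546) and in KO2 (log2 -1.09, SE 0.43, adjusted p = 0.0462), while in WT the difference was log2 0.55 and not called. The KO1 fall was lost without KO1 day 0 replicate 2 (0.0857; 6.59e-07 to 0.0857 over the alternatives), and the KO2 fall in 8 of 18 alternatives, at adjusted p = 0.0511 with the replicate block (0.00149 to 0.347). The change in KO1 minus that in WT passed (log2 -1.96, SE 0.54, adjusted p = 0.0333) and was lost in 7 of 18 alternatives (9.69e-06 to 0.159).

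**Figure D3:**
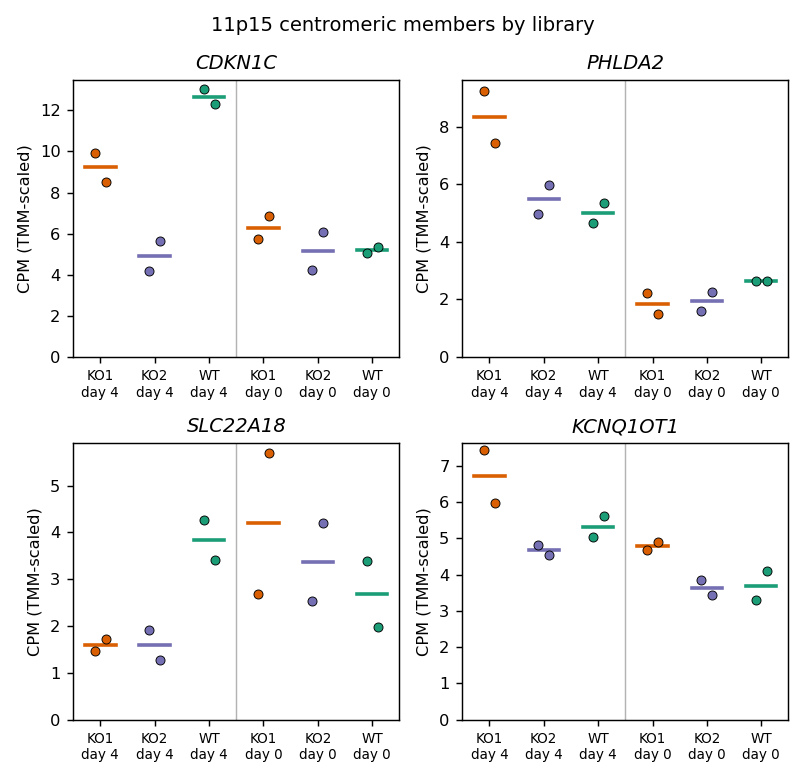
The 4 tested genes of the centromeric 11p15 domain in each library, in CPM on linear axes from 0, with a dot per library and a bar for the mean of 2. At day 4 CDKN1C is at 9.23 ± 0.987 CPM in KO1, 4.9 ± 1.02 in KO2 and 12.7 ± 0.52 in WT (SD, n = 2 each), and SLC22A18 is lower in both clones than in WT.

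KCNQ1OT1, the paternal noncoding RNA that keeps its neighbours silent on that copy, was called against WT in neither clone at either day. Its levels ran from 3.29 to 7.42 CPM. It rose between days in KO1 (log2 0.48, SE 0.18, adjusted p = 0.0292) and WT (log2 0.51, SE 0.20, adjusted p = 0.0421), and these calls were lost in 5 and 7 of 18 alternatives (0.0263 to 0.234 in KO1 and 0.0263 to 0.196 in WT). KCNQ1OT1 lies antisense to KCNQ1, and the strand setting of the counting is not given in the sources used here. In the telomeric 11p15 domain, the noncoding RNA H19 had 0 to 6 counts per library and the growth factor IGF2 0 to 2. Both were at or near the detection limit in all groups.

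In the Prader-Willi and Angelman region, 15q11-q13, SNRPN and UBE3A were called against WT at day 4, and NDN, MAGEL2 and MKRN3 were not. SNRPN, which codes for a protein of the splicing machinery, starts at the imprinting centre of the region. Its window is shown with that of MEST as the window with the most TGCCGC hexamers for its gene, which was a choice made by the motif. It is chr15:24954737-24955036 on the plus strand of GRCh38.p14, from RefSeq, with 18 CpG sites and the hexamer, in capitals, on the reverse strand at position 152 and the forward strand at position 227.

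SNRPN promoter window: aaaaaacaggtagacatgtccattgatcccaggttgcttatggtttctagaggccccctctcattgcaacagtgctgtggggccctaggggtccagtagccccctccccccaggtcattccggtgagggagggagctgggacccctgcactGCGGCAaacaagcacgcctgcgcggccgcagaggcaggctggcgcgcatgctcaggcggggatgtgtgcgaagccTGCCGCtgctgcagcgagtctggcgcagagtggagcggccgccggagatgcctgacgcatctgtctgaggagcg

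SNRPN had 1.64 and 1.03 CPM in KO1, 1.2 and 0.937 in KO2 and 1.91 and 2.9 CPM in WT at day 4, and all clone libraries lay below both WT libraries. At day 0 it had 1.48 and 2.45 CPM in KO1, 1.31 and 1.27 in KO2 and 1.84 and 1.7 in WT, and KO1 overlapped WT. The day 4 difference passed in KO2 (log2 -1.19, SE 0.36, adjusted p = 0.0211) and not in KO1 (log2 -0.89, adjusted p = 0.0854). The KO2 call was lost with DESeq2 (0.0794) and without KO2 day 4 replicates 1 (0.0561) and 2 (0.163) or WT day 4 replicate 2 (0.202; 0.00362 to 0.202 over the alternatives). SNURF, a reading frame on the same transcript, had 0 to 2 counts per library. How reads in exons that both names share were counted is not given in the sources used here, so the level of SNRPN is uncertain.

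UBE3A, a ubiquitin ligase that is imprinted in neurons and made from both copies in most other cells, had 150.0 and 154 CPM in KO1 and 147 and 157 CPM in KO2, against 126 and 126 CPM in WT at day 4. The clones lay above WT without overlap. The rise was small in KO1 (log2 0.27, SE 0.08, adjusted p = 0.0244) and KO2 (log2 0.27, SE 0.08, adjusted p = 0.0176). The KO1 call was lost in 7 of 18 alternatives (0.00326 to 0.144) and the KO2 call in 4 (0.00252 to 0.163), each time on leaving out a library. The rise of UBE3A between days was called in KO1 (log2 0.34, adjusted p = 0.00153) and KO2 (log2 0.40, adjusted p = 0.000714), and the difference in WT was log2 0.04 (adjusted p = 0.662). UBE3A overlaps a long antisense RNA of the region.

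NDN and MAGEL2, intronless genes of the MAGE family made from the paternal copy, and MKRN3, a paternal gene of the makorin ubiquitin ligase family, were not called against WT at either day. NDN ran from 23.4 to 33.8 CPM over all libraries, MAGEL2 from 5.99 to 11.7 CPM and MKRN3 from 0.803 to 1.78 CPM. MAGEL2 rose between days in KO2 (log2 0.50, SE 0.18, adjusted p = 0.0329), a call lost in 5 of 18 alternatives (0.00942 to 0.354). Of 21 other tested genes of the region and its surroundings, 2 were higher and none lower in KO1 at day 4, and 7 were higher and 1 lower in KO2, to be read against the 10.5% of all features higher and 9.42% lower in KO1 and the 13.5% higher and 14.5% lower in KO2. These are edgeR calls, and DESeq2 called 2 of the 21 in KO1 and 4 in KO2. Inside the region, edgeR called the paternal noncoding gene IPW higher in KO2 at day 4 (log2 0.61). It also called the small nucleolar RNA features SNORD116-1 (log2 1.87), SNORD116-2 (0.72) and SNORD116-4 (0.44) higher. SNORD116 genes are near-identical copies within introns of one host transcript, so their values depend on how shared reads were handled. Whether their reads in these poly(A) libraries come from the small nucleolar RNAs or the host transcript was not tested. IPW and SNRPN are both transcribed from the paternal copy, and their fitted differences from WT in KO2 at day 4 had opposite signs. The SNRPN call was lost with DESeq2 (adjusted p = 0.0794).

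At 7q32, MEST codes for a protein of the alpha/beta hydrolase family and is made from the paternal copy of its main promoter. COPG2, a coatomer subunit gene, lies tail to tail with it. The MEST window with the most hexamers is chr7:130491835-130492134 on the plus strand of GRCh38.p14, from RefSeq. It has 25 CpG sites and 3 hexamers in capitals, the first at position 251, with the second overlapping it on the other strand.

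MEST promoter window: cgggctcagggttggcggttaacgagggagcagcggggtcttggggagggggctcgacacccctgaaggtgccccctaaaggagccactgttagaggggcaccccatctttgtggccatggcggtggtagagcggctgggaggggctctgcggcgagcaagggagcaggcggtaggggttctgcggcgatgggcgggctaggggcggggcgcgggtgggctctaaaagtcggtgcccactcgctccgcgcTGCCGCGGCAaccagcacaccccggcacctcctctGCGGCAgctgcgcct

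MEST had 177 and 185 CPM in KO1 and 205 and 217 CPM in KO2, against 155 and 163 CPM in WT at day 4. The lines did not overlap, with KO2 highest and WT lowest. MEST was higher in KO2 (log2 0.41, SE 0.09, adjusted p = 0.00362), a call lost without WT day 4 replicate 1 (0.0554; 1.23e-05 to 0.0554 over the alternatives), and the difference in KO1 did not pass (log2 0.19, adjusted p = 0.177). MEST fell between days in every line, by log2 -0.32 in KO1, -0.24 in KO2 and -0.71 in WT. The fall in WT was called in all 18 alternatives, that in KO1 in 15 and that in KO2 in 10. The fall in KO2 was smaller than that in WT (log2 0.47, SE 0.13, adjusted p = 0.0246), which 7 of 18 alternatives did not call (0.000295 to 0.114).

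COPG2 was called against WT in neither clone. It had 40 and 34.6 CPM in KO1, 49.2 and 50.4 in KO2 and 45.7 and 47.2 in WT at day 4, with KO1 lowest. It fell between days by log2 -0.94 in KO1 (adjusted p = 3.78e-06), -0.32 in KO2 (adjusted p = 0.0272) and -0.44 in WT (adjusted p = 0.00405). The KO2 fall was lost on leaving out any 1 of the 4 KO2 libraries (0.0747 to 0.14).

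At 7q21, PEG10, a paternal gene derived from a retrotransposon, and SGCE, which codes for epsilon-sarcoglycan, start back to back. PEG10 had 451 and 429 CPM in KO1, 314 and 328 in KO2 and 343 and 384 CPM in WT at day 4. KO1 was above and KO2 below WT. The difference passed in KO1 (log2 0.28, SE 0.07, adjusted p = 0.0139) and not in KO2 (log2 -0.18, adjusted p = 0.0792). The KO1 call was lost without KO1 day 4 replicate 1 (0.141) or WT day 4 replicate 1 (0.19; 0.00154 to 0.19 over the alternatives). PEG10 rose between days in KO1 (log2 0.47, adjusted p = 4.91e-05) and in WT (log2 0.33, adjusted p = 0.00133), and in KO2 the difference was log2 0.03 (adjusted p = 0.759). Its neighbour SGCE went the other way and fell in all 3 lines, by log2 -0.37 in KO1, -0.65 in KO2 and -0.28 in WT, with the WT call lost in 14 of 18 alternatives (0.0225 to 0.229) and the KO1 call in 2 (0.00133 to 0.0871). SGCE was not called against WT in either clone.

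At 20q11, NNAT, a proteolipid gene made from the paternal copy, sits within an intron of BLCAP. NNAT had 32.5 and 36.1 CPM in KO1, 56.9 and 54.7 in KO2 and 29.5 and 30 CPM in WT at day 4. KO2 was well above both other lines. It was higher in KO2 than in WT (log2 0.91, SE 0.18, adjusted p = 0.00195), a call held in all 18 alternatives, and KO1 did not pass (log2 0.21, adjusted p = 0.496). At day 0 it had 65.9 and 38.9 CPM in KO1, 69.6 and 57.7 in KO2 and 63.8 and 53.3 in WT. NNAT fell between days in KO1 (log2 -0.60, SE 0.18, adjusted p = 0.00991) and in WT (log2 -0.97, SE 0.19, adjusted p = 0.000459), and in KO2 the difference was log2 -0.19 (adjusted p = 0.394). The KO1 fall was lost without KO1 day 4 replicate 1 (0.0776), without KO1 day 0 replicate 1 (0.187) and with only the groups compared (0.0651; 9.24e-08 to 0.187 over the alternatives). The change in KO2 minus that in WT did not pass (log2 0.78, adjusted p = 0.0559). Its host gene BLCAP was called in no comparison and ran from 50.6 to 65.9 CPM.

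At 7p12, GRB10, an adaptor protein that restrains insulin and growth factor receptor signals, had 289 and 277 CPM in KO1, 178 and 183 in KO2 and 258 and 234 CPM in WT at day 4. The lines did not overlap, with KO1 highest and KO2 lowest. It was lower in KO2 than in WT (log2 -0.44, SE 0.09, adjusted p = 0.00138), a call held in all 18 alternatives, and KO1 did not pass (log2 0.20, adjusted p = 0.111). GRB10 rose between days in KO1 (log2 0.75, adjusted p = 2.73e-06) and WT (log2 0.46, adjusted p = 0.000395), and in KO2 the difference was log2 0.05 (adjusted p = 0.676). At day 0 all 6 libraries ran from 153 to 184 CPM. The KO2 change was smaller than that in WT (log2 -0.42, SE 0.12, adjusted p = 0.0353), which 9 of 18 alternatives did not call (0.000752 to 0.145).

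**Figure D4:**
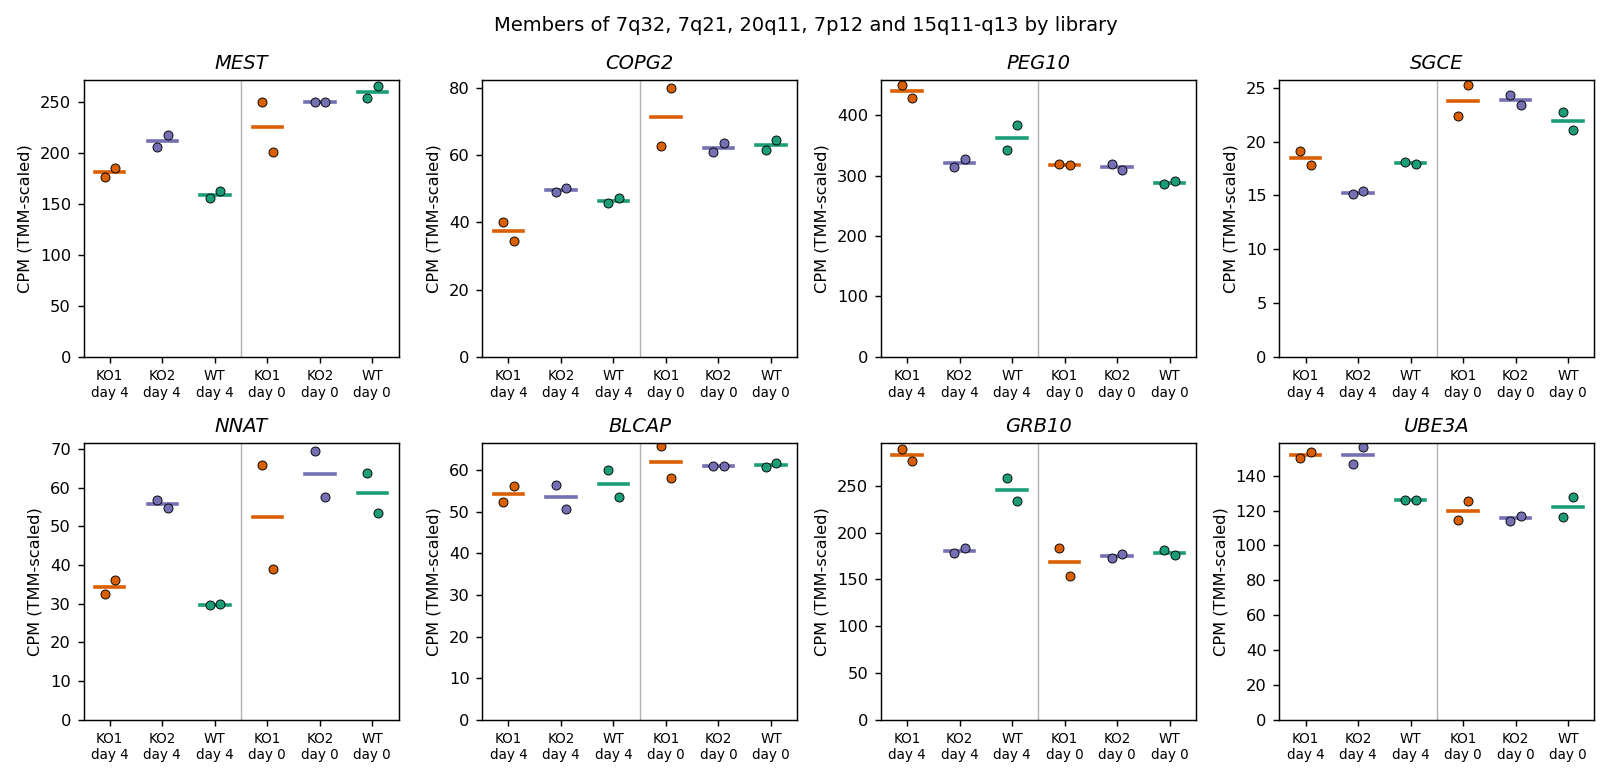
MEST, COPG2, PEG10, SGCE, NNAT, BLCAP, GRB10 and UBE3A in each library, in CPM on linear axes from 0, with a dot per library and a bar for the mean of 2. At day 4 KO2 is above the other lines for NNAT (55.8 ± 1.52 CPM, SD, n = 2) and below them for GRB10 (181 ± 3.98 CPM), while UBE3A is higher in both clones than in WT.

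At 6q24, PLAGL1, a zinc finger gene made from the paternal copy, had 5.18 and 4.13 CPM in KO1, 2.65 and 3.08 in KO2 and 3.36 and 1.48 CPM in WT at day 4. At day 0 it had 1.26 and 2.05 CPM in KO1, 3.28 and 2.35 in KO2 and 0.775 and 1.84 in WT. It rose between days in KO1 (log2 1.45, SE 0.35, adjusted p = 0.00229), held in all 18 alternatives, and was not called in KO2 or WT or in any comparison between lines. HYMAI, a noncoding RNA of the same locus, had 0 to 5 counts per library. GNAS at 20q13, which codes for the stimulatory G protein alpha subunit and has several promoters that gene counts do not separate, was called in no comparison and ran from 996 to 1246 CPM.

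The remaining genes were called against WT in neither clone. NAP1L5, a nucleosome assembly protein gene within HERC3, was called in no comparison and ran from 2.44 to 4.68 CPM. ZDBF2, a zinc finger gene made from the paternal copy, fell between days in KO1 (log2 -0.70, SE 0.17, adjusted p = 0.00269), which was lost without KO1 day 4 replicate 2 (0.0609; 1.87e-06 to 0.0609 over the alternatives). INPP5F, an inositol phosphatase of which 1 transcript is imprinted, rose between days in KO1 (log2 0.40, adjusted p = 0.000293) and in KO2 (log2 0.26, adjusted p = 0.0104), and was not called in WT. The KO2 call was lost without KO2 day 4 replicate 2 or either KO2 day 0 library (0.0531 to 0.0562). DIRAS3, a Ras-family gene that restrains growth, had 2 to 6 counts per library.

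Between days, 14 of the 24 genes were called in KO1, 8 higher and 6 lower, where 29.1% of all features were higher and 29.3% lower. In KO2, 8 were called, 4 higher and 4 lower, where 25% of all features were higher and 25.7% lower. In WT, 11 were called, 5 higher and 6 lower, where 24.3% of all features were higher and 25.4% lower. The summed share was near that of all features in KO1 and WT and below it in KO2, and most changes were small: 3 genes in KO1, 2 in KO2 and 3 in WT changed by at least 1 (log2). Without KO1 day 0 replicate 1 the count in KO1 was 13, where 62.7% of all features were called, and without replicate 2 it was 14, where 57.6% were called. Leaving out other single libraries moved the counts in all 3 lines, and the shares of all features called in those refits moved too.

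The clones were also compared with each other. At day 4, 7 of the 24 genes were called between KO2 and KO1, 3 higher and 4 lower in KO2, where 25.1% of all features were called in either direction. COPG2, NNAT and ZDBF2 were higher and CDKN1C, PHLDA2, PEG10 and GRB10 lower in KO2, all by less than 1 (log2), and the summed endoderm markers differed between the same libraries. On leaving out KO1 day 0 replicate 1 or replicate 2 the count was 11, where 35.4% and 35.5% of all features were called. At day 0, 0 of the 24 were called between KO2 and KO1 in edgeR or DESeq2, and 1 passed at an unadjusted p under 0.05, where 0.0119% of all features were called. Without KO1 day 0 replicate 1 the count at day 0 was 6, where 15.9% of all features were then called, and without replicate 2 it was 0, where 0% were called. The change between days differed from that of WT for 2 of the 24 genes in KO1, where 9.8% of all features differed, and for 5 in KO2, where 13.9% differed. Without KO1 day 0 replicate 1 the count in KO1 was 10, where 26.1% of all features differed, and without replicate 2 it was 1, where 15.4% differed. In KO2 it was 8 on leaving out either one, where 24.4% and 24.6% differed.

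Other genes reported as imprinted in humans were a list of 56, of which 37 were tested. None was called at day 0 in either clone, in edgeR or DESeq2, and 2 in each clone passed at an unadjusted p under 0.05. In edgeR, 0.0596% of all features were higher and 0.179% lower in KO1 at day 0, and 0.0536% higher and 0.0893% lower in KO2. At such shares no call in a list of this size says little. At day 4, 6 of the 37 were higher and 1 lower in KO1, and 6 were higher and 5 lower in KO2. These counts stand against 10.5% of all features higher and 9.42% lower in KO1, and 13.5% higher and 14.5% lower in KO2. CALCR, the calcitonin receptor of the 7q21 locus, had 119 ± 6.36 CPM in KO1, 22.5 ± 3.03 CPM in KO2 and 99.97 ± 14 CPM in WT, and was lower in KO2 (log2 -2.15, adjusted p = 7.8e-08). TFPI2, a protease inhibitor of the same locus, was higher in KO1 (log2 1.34, adjusted p = 5.35e-06). WT1, a zinc finger transcription factor, was higher in KO1 (log2 1.51, adjusted p = 0.00555) and in KO2 (log2 1.10, adjusted p = 0.0278). LRRTM1, a leucine-rich repeat membrane protein, was likewise higher in KO1 (log2 1.08, adjusted p = 0.022) and KO2 (log2 1.20, adjusted p = 0.00809), and the chloride channel ANO1 was lower in KO2 (log2 -1.12, adjusted p = 0.0147).

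Of 13 factors that set or protect imprints and DNA methylation, 12 were tested. None was called against WT at day 0 in edgeR or DESeq2, with 3 in KO1 and 0 in KO2 at an unadjusted p under 0.05. In edgeR, 0.0596% of all features were higher and 0.179% lower in KO1 at day 0, and 0.0536% higher and 0.0893% lower in KO2. No call among 12 genes says little at such shares. At day 4, 1 was higher in KO1, the demethylating enzyme TET3 (log2 0.44, adjusted p = 0.0196). At that day 10.5% of all features were higher and 9.42% lower in KO1, and 13.5% were higher and 14.5% lower in KO2. In KO2, 4 of the 12 factors were higher and 1 lower. The higher ones were the methyltransferases DNMT3B (log2 0.60, adjusted p = 0.000854), DNMT1 (log2 0.30, adjusted p = 0.0141) and DNMT3A (log2 0.28, adjusted p = 0.0429) and the demethylating enzyme TET1 (log2 0.59, adjusted p = 0.000454), and the lower one was TET2 (log2 -0.66, adjusted p = 0.00623). DNMT3B is also a marker of undifferentiated cells. The 5 pluripotency markers it belongs to summed to 3903 to 3937 CPM in KO2, 2999 to 3083 CPM in KO1 and 3236 to 3325 CPM in WT at day 4, and their part in these differences was not tested.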

How the data were processed

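Poly(A) RNA of 12 H1 libraries, 6 groups of 2, was analysed. Per the submitters' processing notes the authors aligned reads with Bowtie2 2.1.0 to hg19 and counted them per feature with HTSeq 0.6.1, and the deposited values are raw counts. Neither the gene annotation nor the strand setting is stated in the sources used here. Rows that name no gene were left out. They hold reads outside features (29.2% to 30.5% per library), of low mapping quality (19.3% to 22.2%), ambiguous (1.17% to 1.41%) or not aligned. The 8 ChIP-seq samples were not analysed here.

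Counts were filtered with filterByExpr, scaled with TMM and tested with edgeR 4.0.16 (glmQLFit and glmQLFTest, 6 residual degrees of freedom) in R 4.3.3, on all 12 libraries, in 11 comparisons, with Benjamini-Hochberg adjustment over 16792 features. SE is the absolute log2 fold change over the root of the F statistic. The script was tested on simulated data. Alternatives were RLE and upper-quartile factors, no filter, DESeq2 1.42.0, a replicate block, only the groups compared, and leaving out each library, 18 in all.

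The imprinted genes and all gene lists were chosen with earlier results of these data known. All 32 genes are named. Values in every library are given, in the text or in a figure, where a gene was called against WT or changed by at least 1 (log2) between days. Further genes are named by rule: other imprinted genes called at 1 (log2) or more against WT, methylation factors called, and called neighbours among the 5 nearest tested on each side, of which those around 14q32 and inside 15q11-q13 are given. Neighbours and promoter windows come from RefSeq tables for GRCh38, which match 14260 tested features by name. Gene positions are not printed because the counts were made on hg19. Figures were drawn with matplotlib 3.10.9.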

Additional observations from a re-analysis of the deposited data

Results flagged for a closer look

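Several genes differed between the knockout clones at day 4, where a difference between KO2 and KO1 is a difference between 2 lines under the same labels and the same WT comparison. CDKN1C was lower in KO2 than in KO1 (log2 -0.90, SE 0.20, adjusted p = 0.0036), as were GRB10 (log2 -0.65, SE 0.09, adjusted p = 5.86e-05), PEG10 (log2 -0.45, SE 0.07, adjusted p = 0.000282) and PHLDA2 (log2 -0.59, SE 0.20, adjusted p = 0.0451). NNAT was higher in KO2 (log2 0.70, SE 0.18, adjusted p = 0.0112), as were ZDBF2 (log2 0.51, SE 0.18, adjusted p = 0.0449) and COPG2 (log2 0.42, SE 0.11, adjusted p = 0.0143). Of these, GRB10 and PEG10 held in all 18 alternatives. CDKN1C was lost in 1, NNAT in 2, COPG2 in 3, ZDBF2 in 7 and PHLDA2 in 11.

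The change between days differed between a clone and WT for 7 values. In KO1 minus WT these were PHLDA2 (log2 1.25, SE 0.34, adjusted p = 0.0312) and SLC22A18 (log2 -1.96, SE 0.54, adjusted p = 0.0333). In KO2 minus WT these were PEG3 (log2 2.74, SE 0.88, adjusted p = 0.0497), CDKN1C (log2 -1.33, SE 0.29, adjusted p = 0.00728), MEST (log2 0.47, SE 0.13, adjusted p = 0.0246), UBE3A (log2 0.35, SE 0.11, adjusted p = 0.048) and GRB10 (log2 -0.42, SE 0.12, adjusted p = 0.0353). UBE3A was lost in 13 of 18 alternatives, GRB10 in 9, PHLDA2 in 8, SLC22A18 and MEST in 7 each and CDKN1C in 1. PEG3 was lost in 11 of 17. Of all features, 9.8% differed in KO1 and 13.9% in KO2. The 7 values come from an interaction term in edgeR over the same 12 libraries, and no explanation was tested.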

How the results depend on the processing

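Of 64 called results on single genes, 26 were called in every one of the 18 alternatives and 38 were lost in at least one, and none reversed. No scaling moved the median of all features by over 0.1 (log2). The number of the 24 genes called moved by over 1.5 times as follows. For KO1 against WT at day 4, 5 in the reported fit, it was 8 with no filter and 12 with only the groups compared. Of all features, 12.8% and 32.3% were then called, against 10.5% higher and 9.42% lower in the reported fit. For KO2 against KO1 at day 4 it was 12 with only the groups compared, against 7. Of all features, 43% were then called, against 25.1%. For the change of KO1 minus that of WT it was 4 with no filter, 1 with DESeq2 and 0 with only the groups compared, against 2. Of all features, 7.52%, 7.9% and 5.08% were then called, against 9.8%. For the change of KO2 minus that of WT it was 3 with RLE factors, 3 with upper-quartile factors and 8 with only the groups compared, against 5. Of all features, 13.9%, 13.7% and 25% were then called, against 13.9%. Fits on only the groups compared estimate the spread from fewer libraries, and otherwise the cause was not tested.

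Leaving out 1 library at a time gave 1 to 12 genes for KO1 and 4 to 9 for KO2 against WT at day 4, and 1 to 7 for KO1 and 0 to 2 for KO2 against WT at day 0. Between KO2 and KO1 it gave 2 to 11 at day 4 and 0 to 6 at day 0. Between days it gave 10 to 14 in KO1, 3 to 10 in KO2 and 9 to 14 in WT, and for the changes minus that of WT 0 to 10 in KO1 and 0 to 8 in KO2. The share of all features called also moved between these refits in every comparison, so these ranges do not describe the imprinted genes alone. Some of the shares are given with the counts above. Whether the imprinted genes moved more than other features was not tested. A lone library left in a group is assumed to vary like the other groups.

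Libraries with the same replicate number share only a number: their deviations from group means correlated at -0.04 to 0.15. With the replicate block, counts were 6 for KO1 and 8 for KO2 against WT at day 4, where 21.8% and 30.4% of all features were called. They were 2 and 2 at day 0 (0.292% and 0.161%), and 7 between KO2 and KO1 at day 4 (27.4%). Between days they were 15, 7 and 13 in KO1, KO2 and WT (60.2%, 52.5% and 51.3%). For the changes minus that of WT they were 3 and 6 (11.7% and 15.8%). Depth limits MEG3, PEG3 and the 8 untested genes, which stood at or near 3 counts in most clone libraries, and floors cover counting error only.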
